A study of Homo sapiens with 19 samples.

Results

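The 44 genes described here encode proteins that copy DNA, and the cyclins, kinases and E2F factors that let a cell pass from G1 into S phase. The rule that picks them names the genes and uses no measured value, although the list was chosen with earlier results of these data known. All 44 had a probe on the array, out of 20503 gene symbols with a probe, and all 44 were among the 16694 genes tested. Each gene was read from its brightest probe, and every such probe was well above background on all 19 arrays except that of CCNE2, which was not at 14 h.

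DNA replication is prepared in G1, when the origin recognition complex, CDC6 and CDT1 load the ring of MCM proteins onto DNA, a step known as licensing. At the start of S phase, CDC45 and the GINS complex join the ring and turn it into the working helicase, polymerases copy both strands while held by the PCNA clamp, and FEN1 and LIG1 join the Okazaki fragments of the lagging strand. E2F factors drive the transcription of many of these genes, and cyclin E with CDK2, activated by the phosphatase CDC25A, pushes the cell across the G1/S boundary. Human embryonic stem cells are known for rapid division with a short G1 phase.

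The arrays are 19 samples of KhES-3, an unedited human embryonic stem cell line, harvested after the start of differentiation into brown adipocytes: at 3 and 4 h, every 2 h from 6 to 16 h, every 4 h from 20 to 36 h, and every 6 h from 42 to 72 h. Every sample was in a low-attachment dish in a serum-free medium with insulin, transferrin, selenium, lipids and a cocktail of IGF-II, BMP4, VEGFA, KITLG, FLT3LG and IL-6, so that only the hours differed between samples. Each time point has 1 array and no replicate, and no array of cells before induction was analysed here, so that every change is relative to the first hours of induction. The labels describe growth on irradiated mouse embryonic fibroblasts before induction, whereas the methods of the study describe a feeder-free system. In such bulk RNA, fewer cells in S phase and less RNA per cell cannot be told apart.

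The arrays lie on 3 slides, with 3 to 12 h on the first (6 arrays), 14 to 42 h on the second (8 arrays) and 48 to 72 h on the third (5 arrays, scanned on a later day). Slide and time therefore overlap, and the number of genes that fell is also given within slides and with the slide as a block. The 75th percentile of the array intensities ranged from 655 to 1003, and 49.5% to 64.7% of probes were well above background, with the lowest share at 14 h, 52.0% at 16 h and 53.8% at 72 h. On every array, all 7 pluripotent stem cell markers were well above background. Of the 7 fibroblast markers, COL1A1, COL1A2 and THY1 were well above background on all arrays, DCN on 9, POSTN on 2, and COL3A1 and LUM on 1 each. Of the 7 brown adipocyte markers, PPARGC1A was so on all arrays, PRDM16 on 13, UCP1, PPARG and CIDEA on 8 each, MYF5 on 1 and EBF2 on none.

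Promoter sequence was matched for 38 of the 44 genes in the RefSeq table of GRCh38.p14. Each gene had 1 window, from 250 bases before to 50 bases after 1 listed start. For CDC45, ORC1, POLD2, PRIM2 and RRM2 that start lies inside the annotated gene, and any start further out was not searched separately. These windows were searched on both strands for 8 spellings of an E2F-type site, TTTCGCGC, TTTGGCGC, TTTCCCGC, TTTGGCGG, TTTCGCGG, TTTCCCGG, TTTGCCGC and TTTGCGCC, which can overlap each other on opposite strands. At least 1 of these spellings stood in 23 of the 38 windows (60.5%), against 1704 of 27305 windows of all genes (6.24%). In this paragraph all genes means every gene with a window, whether or not it had a probe or was tested. The CCAAT letters stood in 21 of the 38 (55.3%, against 35.7% of all), and TTTGAA or TTCGAA, the letters of the element known as CHR, in 2 of the 38 (5.26%, against 16.6%). A match is a description of letters and not a bound site. MCM4, MCM5, GINS4, POLD3, CCNE2 and CDK2 had no entry in the table. The 100 bases before the start are shown for 6 genes whose values the results below turn on and whose windows hold the letters, with the E2F-type letters in capitals, and for RRM2, whose late signal was furthest below its early signal among the 44 genes and whose window holds none.
E2F1, chr20:33686386-33686485, minus strand: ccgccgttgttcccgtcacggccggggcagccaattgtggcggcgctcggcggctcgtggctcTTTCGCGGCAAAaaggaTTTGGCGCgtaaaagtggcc
CDC6, chr17:40287779-40287878, plus strand: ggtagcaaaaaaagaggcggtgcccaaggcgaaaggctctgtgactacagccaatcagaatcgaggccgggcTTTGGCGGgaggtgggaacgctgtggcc
CDC25A, chr3:48188418-48188517, minus strand: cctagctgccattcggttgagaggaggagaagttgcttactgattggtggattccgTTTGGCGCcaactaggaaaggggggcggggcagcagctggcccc
CDT1, chr16:88803689-88803788, plus strand: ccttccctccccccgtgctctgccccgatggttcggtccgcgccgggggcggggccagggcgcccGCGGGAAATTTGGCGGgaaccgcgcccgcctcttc
MCM6, chr2:135876444-135876543, minus strand: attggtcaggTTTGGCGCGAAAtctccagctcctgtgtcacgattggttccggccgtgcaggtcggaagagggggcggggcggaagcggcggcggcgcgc
PCNA, chr20:5126623-5126722, minus strand: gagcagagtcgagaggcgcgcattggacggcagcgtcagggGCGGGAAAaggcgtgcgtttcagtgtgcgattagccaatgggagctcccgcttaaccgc
RRM2, chr2:10122639-10122738, plus strand: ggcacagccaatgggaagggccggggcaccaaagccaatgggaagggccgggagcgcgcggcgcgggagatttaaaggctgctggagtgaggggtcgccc
In CDT1 a reversed site lies directly against a forward one, in MCM6 a forward and a reversed site share letters, and E2F1 holds 3 spellings, of which the first and second share letters.

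Most of the 44 genes fell over the 72 h, though not all at the same time. The slope of log2 signal on hours was negative for all 44 genes, and 41 of them passed the test (limma with Benjamini-Hochberg adjustment over all probes tested, adjusted p under 0.05), against 29.8% of all genes tested that fell. None of the 44 rose, against 24.6% of all genes tested, and none had a positive slope at an unadjusted p under 0.05 or by Spearman correlation with hours. CDC6, CCNE2 and POLD2 were the 3 that did not pass. On all 44 genes the arrays at 60, 66 and 72 h were each lower than the arrays at 3, 4 and 6 h, a pattern found in 35.7% of all genes tested. The late minus early difference, which subtracts the mean log2 signal of the first 3 arrays (3, 4 and 6 h) from that of the last 3 (60, 66 and 72 h), ran from -2.17 for RRM2 to -0.17 for POLD2, with a median of -0.83 over the 44 genes and -0.05 over all genes tested. At least a 2-fold lower late signal was found for 13 of the 44, against 5.85% of all genes tested.

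**Figure D1:**
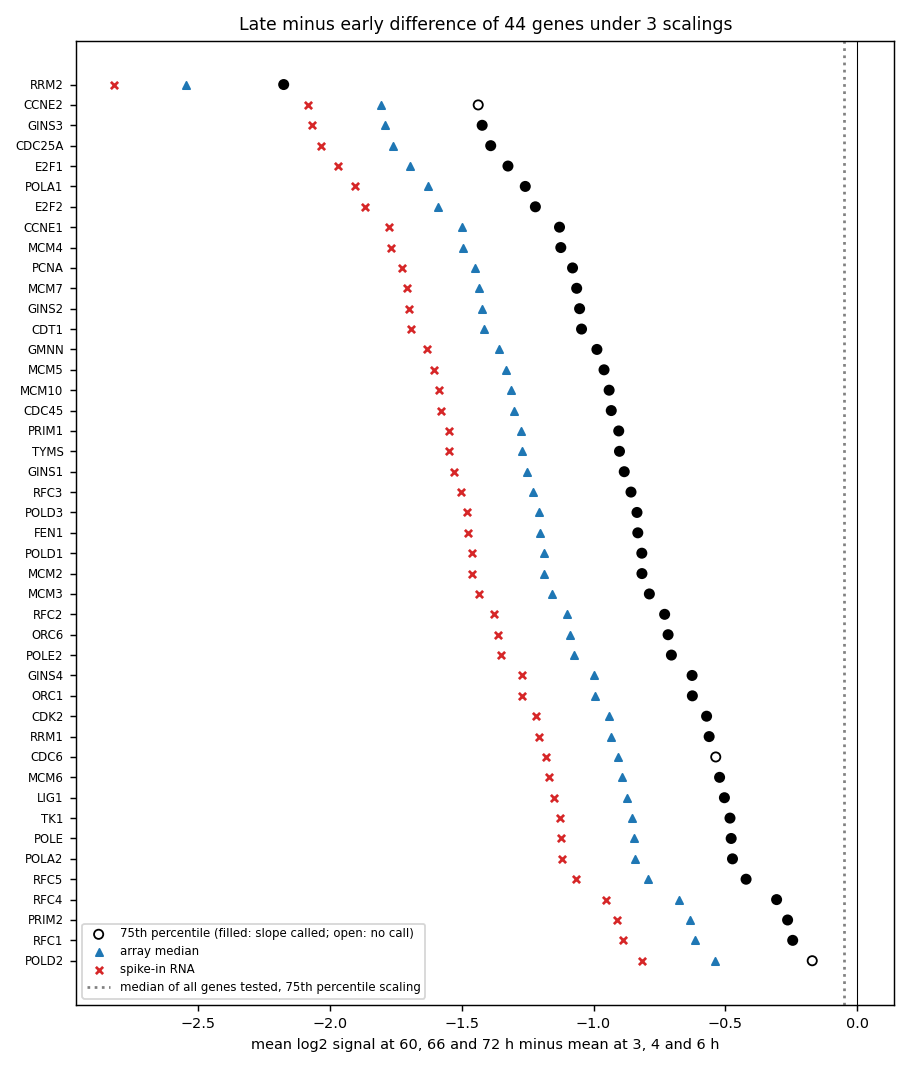
Late minus early difference (horizontal axis, log2) of each of the 44 genes under scaling by the 75th percentile (circles), the array median (triangles) and the spike-in RNA (crosses), with the median of all genes tested as a dotted line. Every gene lies below 0 under all 3 scalings, from -2.17 for RRM2 to -0.17 for POLD2 with the 75th percentile, and the open circles are CDC6, CCNE2 and POLD2.

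How large the fall appeared depended on the scaling. Scaled by the 75th percentile, all genes tested had a median difference of -0.05 and the 44 genes one of -0.83. Scaling by the array median gave -0.42 and -1.20, and scaling by spike-in RNA, the control transcripts added to every sample, gave -0.69 and -1.48. Values below are relative to the 75th percentile, with each signal expressed as an intensity on an array whose 75th percentile is 871.

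With the slide as a block in the fit, 21 of the 44 genes still fell at an adjusted p under 0.05 and none rose, against 5.97% and 4.12% of all genes tested. Within the second slide, from 14 to 42 h, 41 of the 44 slopes were negative, against 50.1% of all genes tested. There 9 genes passed (MCM3, MCM4, MCM5, GINS2, POLA1, POLD1, POLD3, PRIM1 and RRM2), against 3.2% of all genes tested that fell. Within the first slide 22 of the 44 slopes were negative, near the 51.4% of all genes tested, and only CCNE2 passed, against 3.29% of all genes that fell. Within the third slide 31 were negative, against 51.9% of all genes tested, and none of the 44 passed, against 0.713% of all genes that fell. None of the 44 rose within a slide, against 1.84%, 4.13% and 0.341% of all genes tested on the 3 slides in turn. A bend in the time course, the F test of the quadratic and cubic terms, passed for 26 of the 44 over the 19 arrays, against 50.8% of all genes tested.

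**Figure D2:**
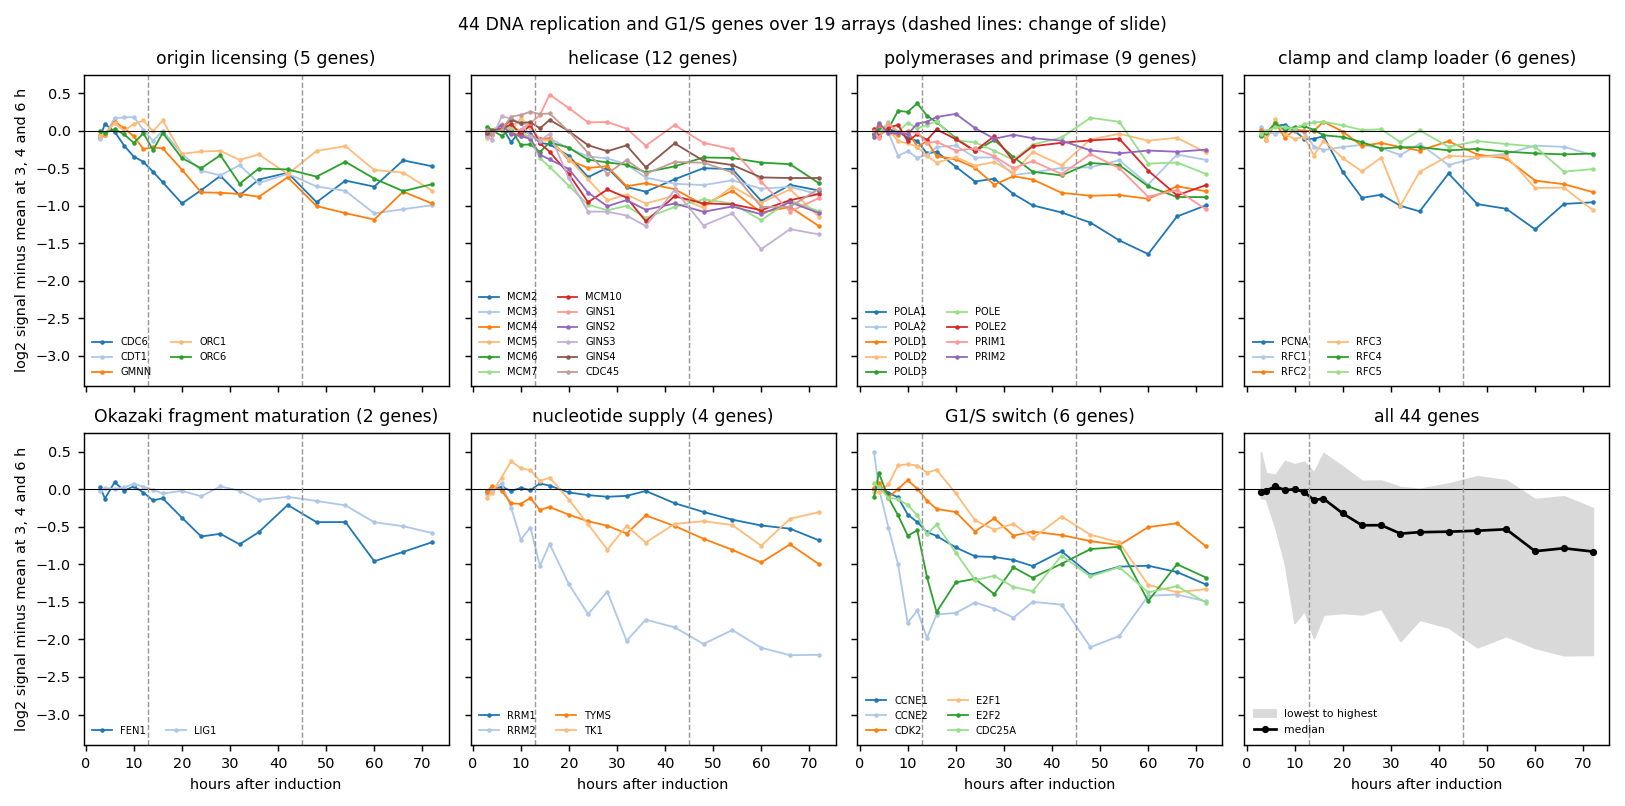
Log2 signal minus its mean at 3, 4 and 6 h (vertical axis) against hours after induction for each gene, in 7 panels by role, and the median with the lowest and highest of all 44 genes in the last panel. Dashed lines mark the change from one slide to the next, and RRM2 ends lowest, with a late minus early difference of -2.17.

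Among the genes that license origins, 4 of 5 fell. CDT1 (NM_030928), which brings the MCM ring to the origin, ran from 6957 at 60 h to 16945 at 10 h with a median of 10868. It was highest between 6 and 10 h, and its late signal was 2.06-fold lower than its early signal (slope -0.018 ± 0.0017 log2 per hour, SE, limma adjusted p = 9.9e-08). GMNN encodes geminin, the protein that holds CDT1 inactive after licensing, and it fell alongside (late minus early difference -0.99). ORC1 and ORC6, subunits of the origin recognition complex, fell with differences of -0.63 and -0.72. Under the slide block, CDT1 (adjusted p = 0.043), ORC1 and ORC6 still fell and GMNN did not pass. CDC6 (NM_001254), the loader that works with the origin recognition complex, was dim, from 70.7 at 20 h to 147 at 4 h with a median of 93.8. It was highest at 4 h, dropped to its lowest array at 20 h and stood at 105 and 100 at 66 and 72 h, so that its slope did not pass (adjusted p = 0.068) while its curvature did (adjusted p = 3.9e-04, limma F test of the quadratic and cubic terms).

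All 12 helicase genes fell, namely the MCM ring, MCM10, the 4 GINS subunits and CDC45. GINS3 (NM_022770) had the steepest slope of the group, -0.025 ± 0.0031 log2 per hour (adjusted p = 3.3e-06). Its signal reached 6257 at 6 h, had a median of 3177 and was lowest at 60 h, at 1836. GINS3 was still at 5329 after 16 h and went to 3528 and then 2600 on the next arrays, at 20 and 24 h. GINS2 (NM_016095), another subunit of the same complex, ran from 3895 at 60 h to 8889 at 6 h with a median of 4751, and it was the most curved of the group (adjusted p = 3.8e-04): it was already at 4194 at 28 h, against a late mean of 4056. MCM6 (NM_005915) had the shallowest slope, -0.0078 ± 0.0014, from 15587 at 72 h to 26297 at 3 h with a median of 19765. The other ring subunits were 1.73-fold (MCM3) to 2.18-fold (MCM4) lower late than early. GINS1 and GINS4 were both highest at 16 h and lowest at 66 h, GINS1 with 20813 and 7073, against 14605 at 3 h. In the fit with a slide block 9 of the 12 still fell, and MCM10, GINS3 and GINS4 did not pass.

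Of the 9 polymerase and primase genes, 8 fell. POLA1 (NM_016937), the catalytic subunit of the polymerase that starts each new strand, had both the steepest slope and the strongest curvature, from 1148 at 60 h to 3641 at 4 h with a median of 2303. It decreased on nearly every array from 10 to 60 h and was higher again at 66 and 72 h (1624 and 1799), with a late signal 2.39-fold below the early one (slope -0.022 ± 0.0024, adjusted p = 4.5e-07). POLA2, its partner subunit, fell less, with a difference of -0.47. POLD1 and POLD3 of polymerase delta and POLE and POLE2 of polymerase epsilon fell by 0.82, 0.84, 0.48 and 0.70 on the log2 scale. POLD2 (NM_006230), also a delta subunit, did not pass (slope -0.0006 ± 0.0020, adjusted p = 0.81). Its signal began at 2713, was lowest at 32 h with 1811 and returned to 2599 at 54 h, with a median of 2304. This dip and return passed the test of curvature (adjusted p = 2.4e-04, limma F test). The low arrays, 1811 to 2197 from 14 to 42 h, are those of the second slide, and the first array of the third slide read 2463. Slide and time therefore cannot be told apart in the dip. The primase subunits PRIM1 and PRIM2, which lay the RNA primer, fell by 0.90 and 0.26. When slide was a block, POLD3, POLE and PRIM1 still fell, and POLA1 did not pass (adjusted p = 0.14).

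The clamp PCNA (NM_002592) and the 5 subunits of its loader, RFC1 to RFC5, all fell. PCNA stood between 20447 and 23353 on every array from 3 to 16 h. It read 15108 at 20 h and 11888 at 24 h, and was lowest at 60 h with 8889. A single array at 42 h, with 14883, was higher than its neighbours at 36 h (10489) and 48 h (11217). Its late signal was 2.11-fold below the early one (slope -0.019 ± 0.0028, adjusted p = 1.7e-05). RFC1 (NM_002913), the large loader subunit, moved least of the group, from 2739 at 42 h to 3910 at 3 h with a median of 3250 and a late signal 1.18-fold lower (adjusted p = 0.0080). RFC2 to RFC5 were 1.24-fold (RFC4) to 1.81-fold (RFC3) lower late than early. Under the slide block, RFC2 and RFC5 still fell and the other 4 did not pass, with an adjusted p of 0.17 for PCNA and 0.59 for RFC1. Both genes of Okazaki fragment maturation fell over the 19 arrays, but neither passed under that block (adjusted p = 0.23 for FEN1 and 0.13 for LIG1). FEN1 (NM_004111), the nuclease that trims the fragments, ran from 1812 at 60 h to 3755 at 6 h with a median of 2710. LIG1 (NM_000234), the ligase that seals them, stayed between 10308 and 11984 up to 42 h and ended at 7598 at 72 h, with a median of 11204.

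All 4 genes that supply nucleotides fell. RRM2 (NM_001034), the small subunit of ribonucleotide reductase, is the enzyme part whose level usually follows S phase. It ran from 444 at 66 h to 2168 at 6 h with a median of 798, and its late signal was 4.52-fold below its early one (slope -0.033 ± 0.0037, adjusted p = 6.0e-07). It was already at 1290 at 10 h and 647 at 24 h, and it ranked 56 among the 16694 genes by the size of the late drop. RRM1 (NM_001033), the large subunit of the same enzyme, stayed between 12332 and 13946 on every array up to 36 h and then ran down to 8248 at 72 h (slope -0.0093 ± 0.0012, adjusted p = 2.8e-06). The late minus early difference was -2.17 for RRM2 and -0.56 for RRM1. The largest falling step of RRM1 came later than that of RRM2. It crossed the change from the second slide to the third, where slide and time cannot be told apart. TYMS, which makes thymidylate, and TK1, which salvages thymidine, fell by 0.90 and 0.48. TK1 was highest at 8 h, at 52006 against 37005 at 3 h, and lowest at 28 h with 22976. With the slide as a block, RRM1 and RRM2 still fell (limma adjusted p = 0.033 and 0.014), and TYMS and TK1 did not pass.

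Among the 6 genes of the G1/S switch, 5 fell. The median difference of the 6 was -1.27, and with the slide as a block E2F1 and CDC25A still fell (limma adjusted p = 0.023 and 0.031) while CCNE1, E2F2 and CDK2 did not pass. CCNE1 (NM_001238), the main cyclin E gene, ran from 7114 at 72 h to 17582 at 4 h with a median of 9663. It was the most curved of all 44 genes (adjusted p = 2.1e-05), with 12645 at 12 h and 9222 at 24 h, after which it stayed between 7114 and 9663. CCNE2 (NM_057749), the second cyclin E gene, was singled out after its values were seen, because its drop came first. Its first 5 arrays, from 3 to 10 h, read 378, 273, 189, 134 and 78.3, each lower than the one before, and the signal stayed between 62.6 and 102 from then on. Within the first slide its slope was -0.25 ± 0.033 log2 per hour (limma adjusted p = 0.023), whereas over all 19 arrays a straight line did not pass (adjusted p = 0.065) and the curvature did (adjusted p = 0.0021). The probe is dim, with the 14 h array not well above background.

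E2F1 (NM_005225), the activator E2F that drives many of these genes, followed another course. It read 2171 at 3 h, was highest at 10 h with 2801, still gave 2593 and 2661 at 14 and 16 h, and had dropped to 1531 by 28 h. From 1361 at 54 h it went to 919, 859 and 884 on the last 3 arrays, with a median of 1729 over all arrays and a slope of -0.024 ± 0.0023 (adjusted p = 1.6e-07). E2F2, the second activator E2F of the group, went from 2062 at 4 h to 571 at 16 h, its lowest, and back to 1044 at 54 h, so that its slope was less certain (adjusted p = 0.036). CDC25A fell from 5837 on the first array to 2383 at 24 h and 1938 on the last (slope -0.021 ± 0.0030, adjusted p = 1.4e-05). CDK2 (NM_001798), the kinase partner of cyclin E, ran from 109 at 72 h to 201.5 at 10 h with a median of 142 and fell by 0.57.

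**Figure D3:**
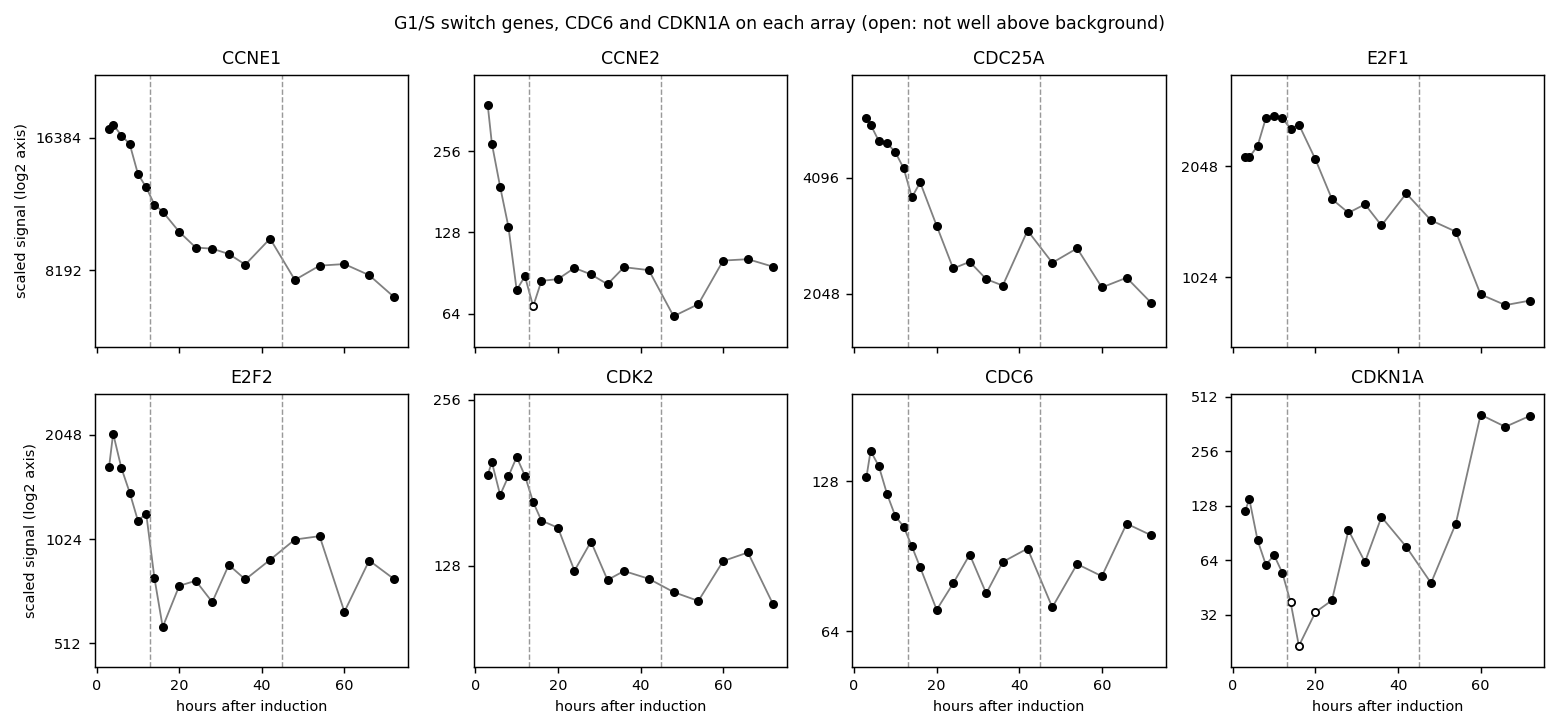
Scaled signal (log2 axis) against hours after induction for the 6 genes of the G1/S switch, CDC6 and the CDK inhibitor CDKN1A, 1 point per array, with open points where the probe was not well above background and dashed lines at the change of slide. CCNE2 drops from 378 to 78.3 between 3 and 10 h, E2F1 peaks at 2801 at 10 h, and CDKN1A is at 349 to 406 on the last 3 arrays.

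The step with the largest fall differed among the 44 genes, by averages over 7 windows (3 to 6, 8 to 12, 14 to 16, 20 to 28, 32 to 42, 48 to 54 and 60 to 72 h). It does not give the time at which a gene began to fall. The largest falling step lay between 14 to 16 h and 20 to 28 h for 18 genes, among them GINS2, GINS3, CDC45, CDT1, GMNN, PCNA, RRM2, TK1 and MCM4, MCM5, MCM7 and MCM10. It lay between 48 to 54 h and 60 to 72 h for 13 genes, among them E2F1, GINS1, POLE, POLE2, POLD3, PRIM1, RFC2, RFC3, ORC1 and LIG1. Both of these steps lie within 1 slide. For some genes the 2 steps were nearly equal, with changes of -0.311 and -0.312 for MCM2 and -0.400 and -0.395 for FEN1. Whether the steps of a gene differ was not tested. Of all genes tested, 14.2% had their largest fall at the first of these steps and 25.4% at the second. The count of 13 of the 44 at the second step is thus near the share of all genes. The step from 3 to 6 h to 8 to 12 h was the largest for CCNE2, CDC6 and POLA2, with 14.4% of all genes. CCNE1, E2F2, CDK2, POLD2 and RFC1 had it across the change from the first slide to the second, with 24.4% of all genes. PRIM2, RRM1 and TYMS had their largest fall across the change from the second slide to the third, with 12.98% of all genes. At both changes slide and time cannot be told apart.

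**Figure D4:**
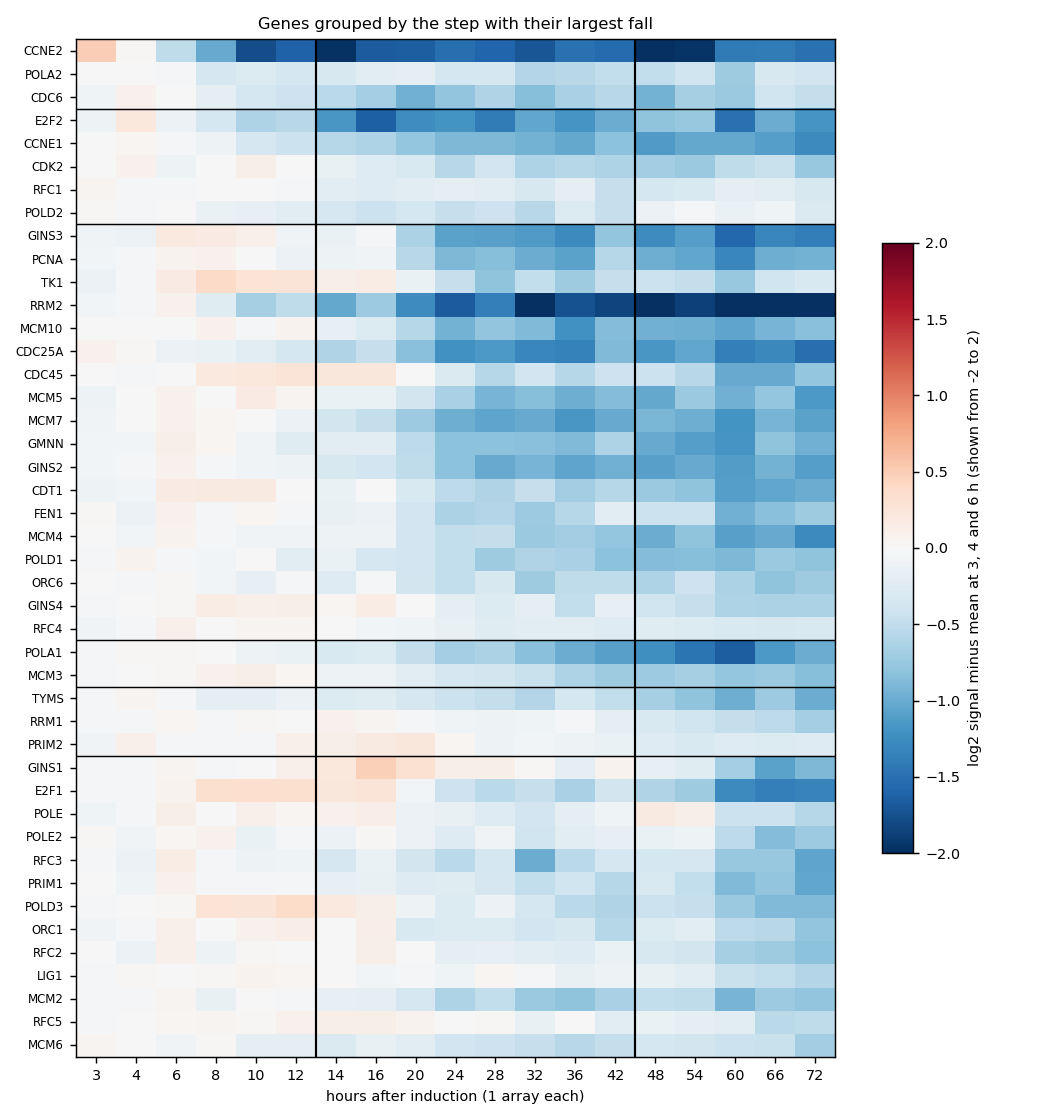
Log2 signal minus its mean at 3, 4 and 6 h (colour, cut off at -2 and 2) for each of the 44 genes (rows) on each array (columns, hours after induction), with rows grouped by the step of their largest fall and vertical lines at the change of slide. In the group of 18 genes, CDC45, PCNA and GINS3 fall between 16 and 24 h. In the group of 13, E2F1 and GINS1 are lower at 60 h than on any earlier array. At 36 h E2F1 is already at -0.65 and GINS1 at -0.20. The grouping does not show when a gene first falls below its early mean. The count of 13 is near the share of all genes tested with that step, 25.4%.

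From one array to the next, the genes moved together at 3 points. From 16 to 20 h, 37 of the 44 were lower on the later array with a median change of -0.17, and from 20 to 24 h 38 were lower with a median change of -0.18. The same steps took 50.1% and 51.9% of all genes tested lower, with medians of -0.00073 and -0.0090. From 54 to 60 h, 39 of the 44 were lower with a median of -0.22, against 54.1% and a median of -0.02 for all genes. These counts were 37, 38 and 38 under array median scaling, where 48.9%, 55.2% and 50.2% of all genes were lower. Under spike-in scaling they were 36, 38 and 43, against 42.1%, 52.2% and 90.4% of all genes, so that at 54 to 60 h the share of the 44 was near that of all genes. Before 12 h the median change per interval stayed between -0.06 and 0.05. Each of these steps rests on single arrays, and 1 array's own deviation cannot be told apart from the time point.

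**Figure D5:**
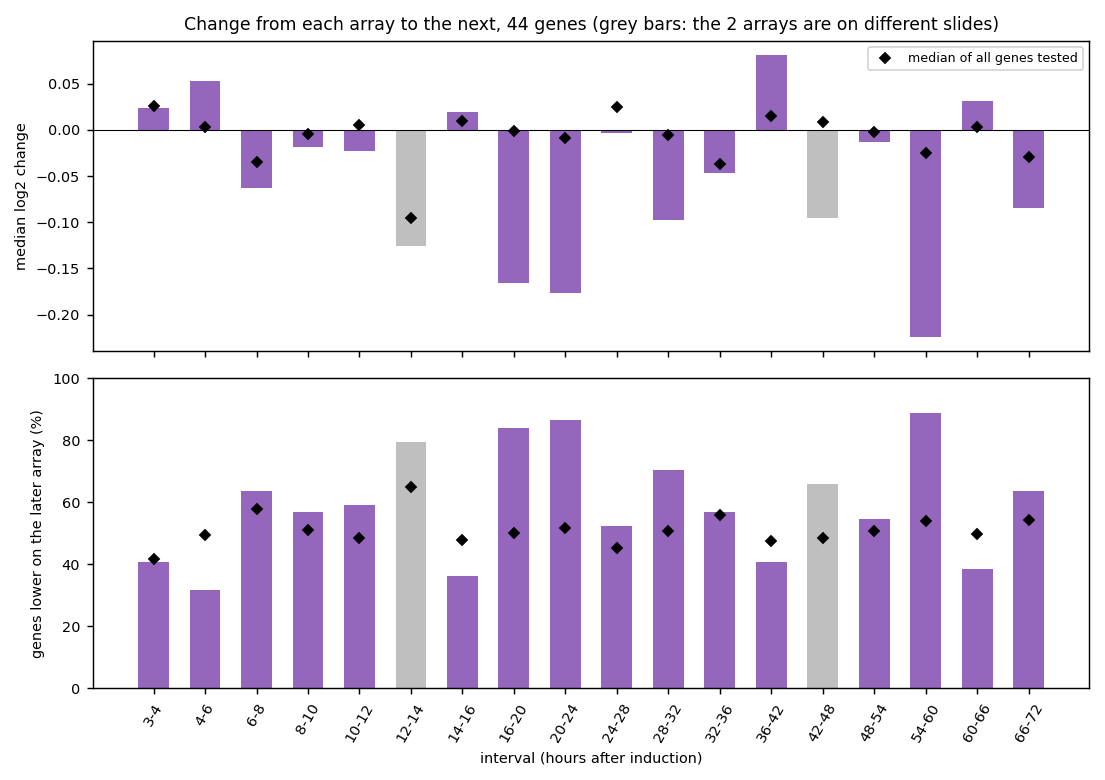
Median log2 change of the 44 genes from each array to the next (upper panel) and the percent of them lower on the later array (lower panel), with diamonds for all genes tested and grey bars where both arrays are on different slides. The bars at 16 to 20 h, 20 to 24 h and 54 to 60 h reach -0.17, -0.18 and -0.22, where the diamonds are near 0.

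Over the 19 arrays, the 946 pairs of these genes had a median Pearson r of 0.79, as a description of genes read from the same arrays, and 11 pairs were below 0. Around each gene's own straight line in hours, the median r was 0.33, with 256 pairs below 0. CDT1 and GMNN, whose proteins bind each other, had r = 0.94, and E2F1 and E2F2 had r = 0.40. The 23 genes with E2F-type letters in the promoter window had a median late minus early difference of -0.90 (from -1.42 to -0.24), and the 15 without them -0.72 (from -2.17 to -0.17), so that both groups spanned most of the range.

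For 7 of the 44 genes another probe was measured too. The second probes of MCM5 and MCM7 and both further probes of PCNA fell, with differences of -0.74, -0.72, -1.13 and -1.07. The second probe of POLE differed by -0.05 and did not pass (adjusted p = 0.37), and of the further probes of PRIM2 one fell by 0.56 and the other differed by 0.05 (adjusted p = 0.57), so that the fall of POLE and PRIM2 depends on the probe. The second probes of RFC3 (-0.35, adjusted p = 0.081) and CCNE2 (-1.06, adjusted p = 0.23, well above background on 7 arrays) did not pass.

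Of 37 other replication factors outside the 44, 22 fell, 2 rose and 13 did not pass, with a median difference of -0.38. Of all genes tested, 29.8% fell and 24.6% rose. RNASEH2B, a subunit of the enzyme that removes RNA from DNA, and DUT, which keeps uracil out of DNA, fell by 1.58 and 1.42. WDHD1, which tethers polymerase alpha to the helicase, and CHTF18, a subunit of an alternative clamp loader, rose by 0.69 and 0.50. Under spike-in scaling WDHD1 was at 0.04 and CHTF18 at -0.14, and with the slide as a block neither passed (limma adjusted p = 0.40 and 0.62). Within the second slide WDHD1 rose (limma slope 0.023 log2 per hour, adjusted p = 0.043). There 1 of the 37 rose and 5 fell, against 4.13% and 3.2% of all genes tested. Of 14 genes of replication-coupled chromatin and protein destruction, 11 fell and none rose, with none rising by Spearman correlation or having a positive slope at an unadjusted p under 0.05. UHRF1, which maintains DNA methylation behind the fork, and CHAF1B, a subunit of the histone chaperone CAF-1, fell by 1.34 and 1.08.

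Of 23 tested regulators among the cyclins, CDKs, RB proteins and further E2Fs, 11 fell and 2 rose. The shares of all genes tested were 29.8% and 24.6%. E2F8, a repressor E2F, and CDK6, a partner of the D cyclins, fell by 1.63 and 1.42. RBL2, a pocket protein, rose by 0.30, but was at -0.07 under array median scaling and -0.34 under spike-in scaling. CDKN1A, which encodes the CDK inhibitor p21, was the larger rise of the list, 3.46-fold (adjusted p = 0.0076). It was not a steady rise: the signal was 120 at 3 h and not well above background at 14, 16 and 20 h. It read 47.9 at 48 h, 102 at 54 h and 406, 349 and 401 on the last 3 arrays. The call rests on those 3 arrays, since from 3 to 54 h the slope did not pass (adjusted p = 0.94), nor did a Spearman correlation over all arrays (adjusted p = 0.26). The step from 54 to 60 h is the one at which 39 of the 44 replication genes were lower, and any link between these changes was not tested. The slopes of the D cyclins, looked at after their values were seen, did not pass over all arrays. Their curvature did (limma F test, adjusted p = 7.1e-07 for CCND1, 0.0031 for CCND2 and 0.0073 for CCND3). CCND2 and CCND3 fell within the first slide (limma slope, adjusted p = 0.038 and 0.029), but their late minus early differences were only -0.09 and -0.10. The difference of CCND1 was -0.81, and its slope within the first slide did not pass (limma adjusted p = 0.053).

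Mitosis genes, which act after S phase, also fell, 19 of 23 with none rising (none by Spearman correlation or at an unadjusted p under 0.05 either) and a median difference of -0.51. For this and the marker lists below, the shares of all genes tested were 29.8% that fell and 24.6% that rose. KIF11 and BUB1, a spindle motor and a checkpoint kinase, fell by 1.14 and 1.06. Within the first slide 5 of the 23 mitosis slopes were negative against 22 of the 44 and 51.4% of all genes tested. Within the second slide 17 of 23 were negative, against 41 of 44 and 50.1% of all genes. The difference between the 2 lists was not tested. Of the pluripotent stem cell markers 4 of 7 fell, DNMT3B by 0.84 and TDGF1 (now CRIPTO) by 0.63, with none rising, also by Spearman correlation or at an unadjusted p under 0.05. Of 4 fibroblast markers tested COL1A2 alone passed and rose by 0.37, a count near the 24.6% of all genes that rose. Under array median scaling COL1A2 was at -0.0034. Of 5 brown adipocyte markers tested PPARGC1A fell by 0.64, and PPARG rose but was well above background on only 2 of the last 3 arrays. With the slide as a block, 5 of the other replication factors, 3 of the chromatin and destruction genes, 4 of the regulators and 3 of the mitosis genes still fell. In that fit 5.97% of all genes tested fell and 4.12% rose. CDKN1A still rose there (limma adjusted p = 0.025). The part of any change in cell mixture in the fall of the 44 genes was not tested.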

How the data were processed

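The authors deposited, for each of the 19 arrays, the spot table written by Agilent Feature Extraction 10.10.1.1 (named in the submitters' processing notes), in which the processed intensity is background-subtracted and not scaled between arrays. The other deposited columns used are raw median pixel intensities of spot and background and flags of 0 or 1. A deposited series table, also of intensities, equals the processed intensity times 1 factor per array, within 0.1% for 98.76% to 99.27% of values per array, and was an alternative here.

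Control and flagged spots were removed, and none was saturated. Spots of a probe were averaged, and log2 intensity minus each array's 75th percentile was analysed. Probes were named through the RefSeq accession in the files (28174 probes, 20503 symbols, GRCh38.p14 annotation), and TDGF1 through its synonym. The brightest probe stood for a gene. With limma 3.58.1 in R 4.3.3 (lmFit, eBayes, Benjamini-Hochberg, adjusted p under 0.05), a slope on hours was fitted for the 32113 probes that were well above background on 5 or more arrays, and curvature as the F test of the quadratic and cubic terms of a cubic. Late minus early differences compare different time points, are no replicates and have no test. With 1 array per time point, p-values measure scatter around a line, and precision is limited by the number of arrays.

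The fits were tested on simulated data with independent noise. Of 100 planted slopes each, 60 were called at 1 log2 over the series and 92 at 2 log2. Of 100 planted bends each, 58 were called at the smaller size and 86 at the larger. A gene that did not pass may therefore still have changed. The members and lists were chosen with earlier results of these data known. Per role, full values are given for the genes with the highest slope, the lowest slope and the highest F, and of each other list for the 2 largest rises and falls that passed and were well above background on the 3 arrays of the brighter window. Alternatives were 2 other scalings, normexp (offset 50) with quantile normalization, the deposited table, other filters, the mean of a gene's probes, log2 hours, slide as a block, 3 to 54 h, each array left out, Spearman correlation, and 72 h against 3 h. Python 3.11.15 was used for summaries and figures.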

Additional observations from a re-analysis of the deposited data

How the results depend on the processing

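The count of falling genes was within 1.5 times of 41 under every alternative tried except slide as a block, which left 21, with 42 negative slopes, and cut the genes with a curved time course from 26 to 7. The 20 calls lost there were those of PCNA, RFC1, RFC3, RFC4, MCM10, GINS3, GINS4, GMNN, POLA1, POLA2, POLD1, POLE2, PRIM2, TYMS, TK1, CCNE1, CDK2, E2F2, FEN1 and LIG1, and the cause was not tested. No gene of the 44 rose under any of them. Leaving out each array in turn gave 40 to 42 falling genes, 20 to 26 curved ones, 0 rising ones and a median late minus early difference from -0.86 to -0.80. The median difference moved from -0.83 to -1.20 with the array median, -1.48 with the spike-in RNA and -0.63 with normexp and quantile normalization. Slopes without a call changed sign for CDC6 (0.0056) and CCNE2 (0.0022) with the slide as a block, and for POLD2 with normexp and quantile normalization (0.00148), and leaving out each array gave it slopes from -0.00152 to 0.000187, above 0 without the 3 h or the 6 h array (5.12e-05 for the latter). Within slides 1, 2 and 3 the falling genes numbered 1, 9 and 0. No paired analysis was possible because no time point has more than 1 array. The probes of CDC6, CCNE2 and CDK2 are dim, and without replicates a single array's deviation cannot be told apart from its time point.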
